A study of Mus musculus with 36 samples.

Results

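The 10 genes described here encode subunits of Polycomb repressive complex 2 (PRC2): Ezh1, Ezh2, Eed, Suz12, Rbbp4, Mtf2, Phf1, Phf19, Jarid2 and Aebp2. They were picked by a list of names from a table of 51734 gene symbols. The rule uses no measured value, but the list was chosen with earlier results of these data known. All 10 were present and all 10 passed the filter on low counts, which left 20511 genes for testing. The study sequenced messenger RNA of the E14 line of mouse embryonic stem cells (ESC), and of neural precursors (NPC) differentiated from it, with or without the catalytic activity of the histone methyltransferases MLL3 and MLL4. The 18 libraries used here form 6 groups of 3. Wild-type cells (WT), cells of the genotype MLL3/4 dCD (dCD below) and cells of the genotype MLL2 dTAG (MLL2dTAG below) were each sampled as ESC and as NPC. Every group, WT included, carries the treatment label dTAG-13, a degrader of proteins that hold a dTAG tag, at 2 µM. In the NPC groups it was added from day 1 of differentiation, the cells were taken on day 4, and the treatment label also names RA. Stage and the RA treatment therefore cannot be told apart. How long the ESC groups were exposed to dTAG-13 is not given in the sources used here. Each genotype is a line of its own, and the labels do not say how many clones stand behind it or whether the 3 libraries of a group came from separate cultures. The p-values then measure only the spread between these samples, which may be technical.

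PRC2 places methyl groups on lysine 27 of histone H3, a mark of silenced developmental genes. Its core holds a catalytic subunit, Ezh2 or its paralog Ezh1, with Eed, Suz12 and the histone-binding Rbbp4. The core joins either a Polycomb-like protein (Mtf2, Phf1 or Phf19) to form PRC2.1, or Jarid2 and Aebp2 to form PRC2.2. In embryonic stem cells the complex is known for keeping lineage genes silent, and MLL2, MLL3 and MLL4 write methylation on lysine 4 of the same histone.

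The libraries held 19430860 to 46041277 counts, and levels are given as CPM, counts relative to the library total after scaling by TMM factors. Neither the degradation of a protein nor the loss of its activity has to alter its transcript, so the edited genes' RNA levels do not check the labels. The cell-type labels were checked against markers. The 8 ESC markers summed to between 2959 and 3857 CPM in the ESC groups, to between 31.9 and 44.1 CPM in the WT and dCD NPC, and to between 180 and 184 CPM in the MLL2dTAG NPC. The 8 neural precursor markers summed to between 125 and 153 CPM in ESC and to between 281 and 561 CPM in NPC. From ESC to NPC, 7 of the 8 were called higher in each line. The other, Sox1, was not called in WT and fell in dCD (log2 change -0.32) and MLL2dTAG (-1.42). Of all genes tested, 39.1% were called higher in WT, 38.7% in dCD and 39.9% in MLL2dTAG. Neurog2 was at 0 in all WT and MLL2dTAG ESC libraries. The 6 endoderm markers were also all called higher from ESC to NPC in each line. They summed to 14.3 to 15.6 CPM in WT ESC, 10.03 to 10.76 CPM in dCD ESC and 26.8 to 29.5 CPM in MLL2dTAG ESC. In NPC they summed to 205 to 213 CPM in WT, 177 to 184 CPM in dCD and 510 to 524 CPM in MLL2dTAG. A rise from ESC to NPC was thus not particular to the neural precursor markers. The 6 mesenchyme markers summed to between 479 and 596 CPM in WT ESC and were all called higher in both edited ESC groups, at 757 to 905 CPM. The share of all genes called higher was 25.7% in dCD ESC and 28.7% in MLL2dTAG ESC. The MLL2dTAG line also stood apart in Uty, the Y-linked relative of the demethylase Kdm6a. Uty had a mean of 41.6 ± 0.657 CPM in WT ESC and 1.57 ± 0.130 CPM in MLL2dTAG ESC (SD, n = 3), and 4 counts in all in the 3 MLL2dTAG NPC libraries. In bulk RNA, fewer cells of a type and less RNA per cell cannot be told apart, and this holds for every level below.

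On GRCm38 (GENCODE M21), Ezh1 spans chromosome 11 from 101191115 to 101226463 on the minus strand and Ezh2 chromosome 6 from 47530139 to 47595341, also on the minus strand. Jarid2 spans chromosome 13 from 44729474 to 44921643 on the plus strand, and Phf19 chromosome 2 from 34893757 to 34914026 on the minus strand. Of these, Phf19, Ezh1 and Jarid2 had the largest changes in the edited lines. The bases upstream of their start sites are shown because PRC2 and MLL2 are both known to act at CpG-rich promoters. They are from RefSeq on GRCm38.p6, read 5′ to 3′ on the gene's strand, with every CpG in capitals. The Phf19 stretch is 200 bases at chr2:34914027-34914226 on the minus strand. The Ezh1 stretch is 250 bases at chr11:101226464-101226713 on the minus strand. The Jarid2 stretch is 250 bases at chr13:44730524-44730773 on the plus strand, between annotated exons of longer Jarid2 transcripts that start further upstream.
Phf19: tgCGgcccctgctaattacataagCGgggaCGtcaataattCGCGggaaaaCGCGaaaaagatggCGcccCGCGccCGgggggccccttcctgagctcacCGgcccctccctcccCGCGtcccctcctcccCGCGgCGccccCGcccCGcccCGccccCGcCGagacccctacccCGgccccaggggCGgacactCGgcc
Ezh1: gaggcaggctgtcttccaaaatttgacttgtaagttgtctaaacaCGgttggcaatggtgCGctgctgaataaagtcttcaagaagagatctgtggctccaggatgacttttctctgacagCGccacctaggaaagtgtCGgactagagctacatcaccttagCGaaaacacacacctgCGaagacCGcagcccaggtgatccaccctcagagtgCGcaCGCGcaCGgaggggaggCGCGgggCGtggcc
Jarid2: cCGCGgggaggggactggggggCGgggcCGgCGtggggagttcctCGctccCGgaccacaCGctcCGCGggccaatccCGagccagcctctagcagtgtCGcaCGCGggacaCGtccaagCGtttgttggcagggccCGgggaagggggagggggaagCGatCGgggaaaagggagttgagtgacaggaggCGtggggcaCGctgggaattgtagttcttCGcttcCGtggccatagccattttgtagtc
These stretches hold 25, 14 and 23 CpG. Over windows of 300 bases (250 before and 50 after a start), RefSeq gave 14 windows for the 10 genes among 32851 in all. The most CpG-rich window of each gene held 17 to 41 CpG. The median over all windows was 7, and 31.4% of all windows held 17 or more. These are unlike measures, since the best window of each gene is set beside every single window. The 17 is itself the lowest of the best windows, so all 10 genes reach it by construction. Further windows of these genes held 4 and 4 CpG (Aebp2) and 2 CpG (Mtf2). Suz12, with 41 CpG, lay at percentile 96.54, Rbbp4, with 39, at 95.55 and Phf19, with 38, at 95.05. The E2F-type motif TTTNGCGC, searched on both strands, was found in the Ezh2 window and in 1.38% of all windows. Other forms of E2F-type motif were not searched, so their absence from the other genes is not shown. CCAAT was found in 8 of the 14 windows of these genes, which belong to 7 genes, and in 37.4% of all windows. A match describes letters in a window and not a bound site.

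Read per kilobase of exonic length (GENCODE M21), the 10 transcripts spanned a wide range in WT ESC. Suz12, the subunit that holds the core together, was highest at 84.1 ± 2.94 CPM per kb, followed by Mtf2 at 70.7 ± 1.48 and Rbbp4 at 52.5 ± 2.12 (SD, n = 3). Eed, Jarid2 and Ezh2 lay between 42.4 and 47.4 CPM per kb. Ezh1 stood at 18.3 ± 1.48 CPM per kb, below Ezh2 at 42.4 ± 0.588. Phf19 and Phf1 were lowest, at 4.20 ± 0.262 and 3.81 ± 0.0628 CPM per kb. In MLL2dTAG ESC the highest was Jarid2, at 95.2 ± 1.43 CPM per kb. In all 3 NPC groups Rbbp4, which is also part of other chromatin complexes, led at 39.8 to 42.0 CPM per kb. Reads from overlapping genes can enter such levels where strand was ignored in counting, which is not stated. Phf1 shares 39.3% of its exonic length with the antisense gene Cuta, while Rbbp4, Mtf2 and Eed share less than 10% each with any antisense neighbour.

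**Figure D1:**
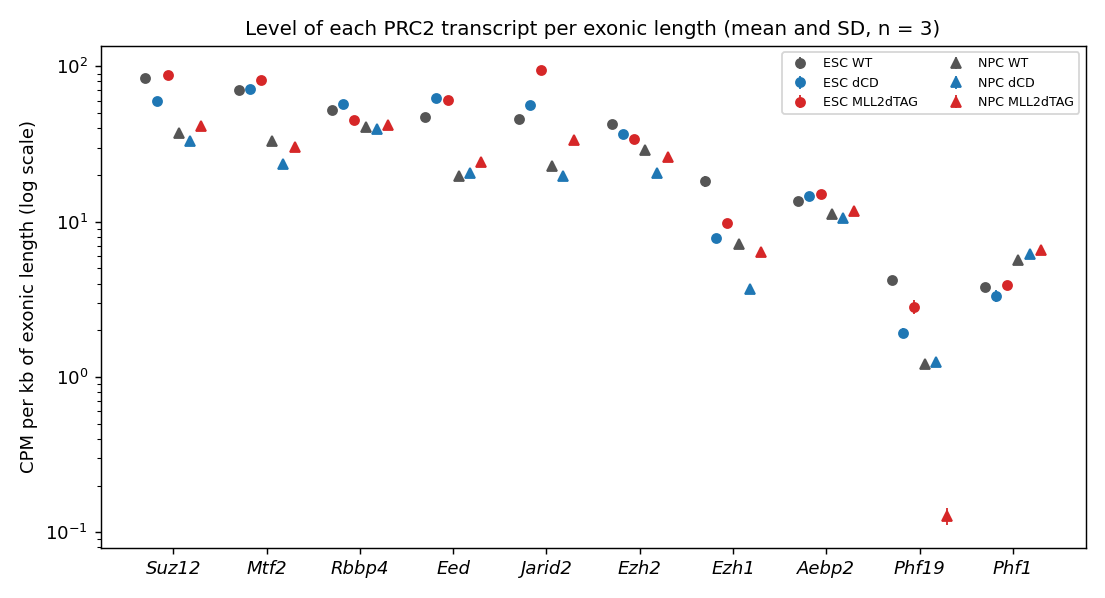
Mean level of each PRC2 transcript in CPM per kilobase of exonic length, on a log axis, in the 6 groups; bars are the SD of 3 libraries and are often smaller than the point. Circles are ESC and triangles NPC, and Phf19 in MLL2dTAG NPC, at 0.128 CPM per kb, is the lowest point of the plot.

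The change from ESC to NPC is the comparison of developmental stage within each line. In WT cells 9 of the 10 PRC2 transcripts fell and Phf1 rose. Of all genes tested, 79.5% were called in either direction, 39.1% higher and 40.4% lower, at an adjusted p under 0.05 (edgeR quasi-likelihood test, Benjamini-Hochberg over all genes). The median log2 change of the 10 was -1.06, against -0.04 over all genes. All 10 had library ranges that did not overlap between the stages, as did 79.7% of all genes. Proliferation genes moved in the same direction: 9 of 10 fell in WT, Mcm5 most, and their summed level went from between 5414 and 5635 CPM in ESC to between 3593 and 3664 CPM in NPC. Their part in the PRC2 changes was not tested.

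Of the catalytic subunits, Ezh2 had 285, 279 and 286 CPM in the WT ESC libraries and 195, 194 and 191 CPM in WT NPC. Every NPC library lay below every ESC library, and the log2 change was -0.55 (SE 0.03, edgeR adjusted p = 2.29e-17). Ezh1 had 132, 148 and 128 CPM in WT ESC and 53.4, 54.2 and 52.0 CPM in WT NPC. WT ESC replicate 2 was the highest, and the NPC libraries were all far below. Ezh1 fell by 1.36 on the log2 scale (SE 0.05, edgeR adjusted p = 3.27e-24).

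Among the other core subunits, Eed reads the methyl mark and stimulates the enzyme. It had 178, 183 and 183 CPM in WT ESC and 73.5, 75.0 and 78.8 CPM in WT NPC, a log2 change of -1.26 (SE 0.04). Suz12 went from 416, 431 and 402 CPM to 187, 181 and 181 CPM, a log2 change of -1.18 (SE 0.04). For both genes the stages were widely separated. Rbbp4 fell less, from between 441 and 478 CPM to between 353 and 357 CPM, a log2 change of -0.37 (SE 0.03).

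The PRC2.1 subunits went in both directions. Mtf2, the Polycomb-like gene with the highest transcript level in WT ESC, had 407, 408 and 393 CPM in WT ESC and 188 CPM in each of the 3 WT NPC libraries, a log2 change of -1.10 (SE 0.03). Phf19 had 20.7, 20.1 and 22.6 CPM in WT ESC and 6.11, 5.83 and 6.40 CPM in WT NPC, a log2 change of -1.79 (SE 0.10). It was the member with the largest drop in WT. Phf1 had 13.0, 13.4 and 13.5 CPM in WT ESC and 18.1, 20.1 and 21.2 CPM in WT NPC. It rose by 0.58 on the log2 scale (SE 0.08), and Cuta, which overlaps it, had a log2 change of -0.08 in the same comparison (adjusted p = 0.221, edgeR).

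Of the PRC2.2 subunits, Jarid2, which helps bring the complex to chromatin, had 436, 479 and 429 CPM in WT ESC and 217, 224 and 223 CPM in WT NPC. Its log2 change was -1.02 (SE 0.04). Aebp2, a zinc-finger subunit, had 129, 139 and 134 CPM in WT ESC and 116, 108 and 107 CPM in WT NPC, and its log2 change of -0.28 (SE 0.04) was the smallest of the 10. The size of the changes depended on the processing. Over the settings that kept all libraries of the comparison, the WT log2 change of Ezh1 ran from -1.63 to -1.25. That of Jarid2 ran from -1.42 to -0.91. In proportion, smaller changes moved more. With offsets for GC content and gene length together, the WT log2 change became -0.87 for Ezh2, -0.79 for Rbbp4 and -0.70 for Aebp2, and all stayed called. With no filter on low counts Aebp2 was at -0.18, still called.

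**Figure D2:**
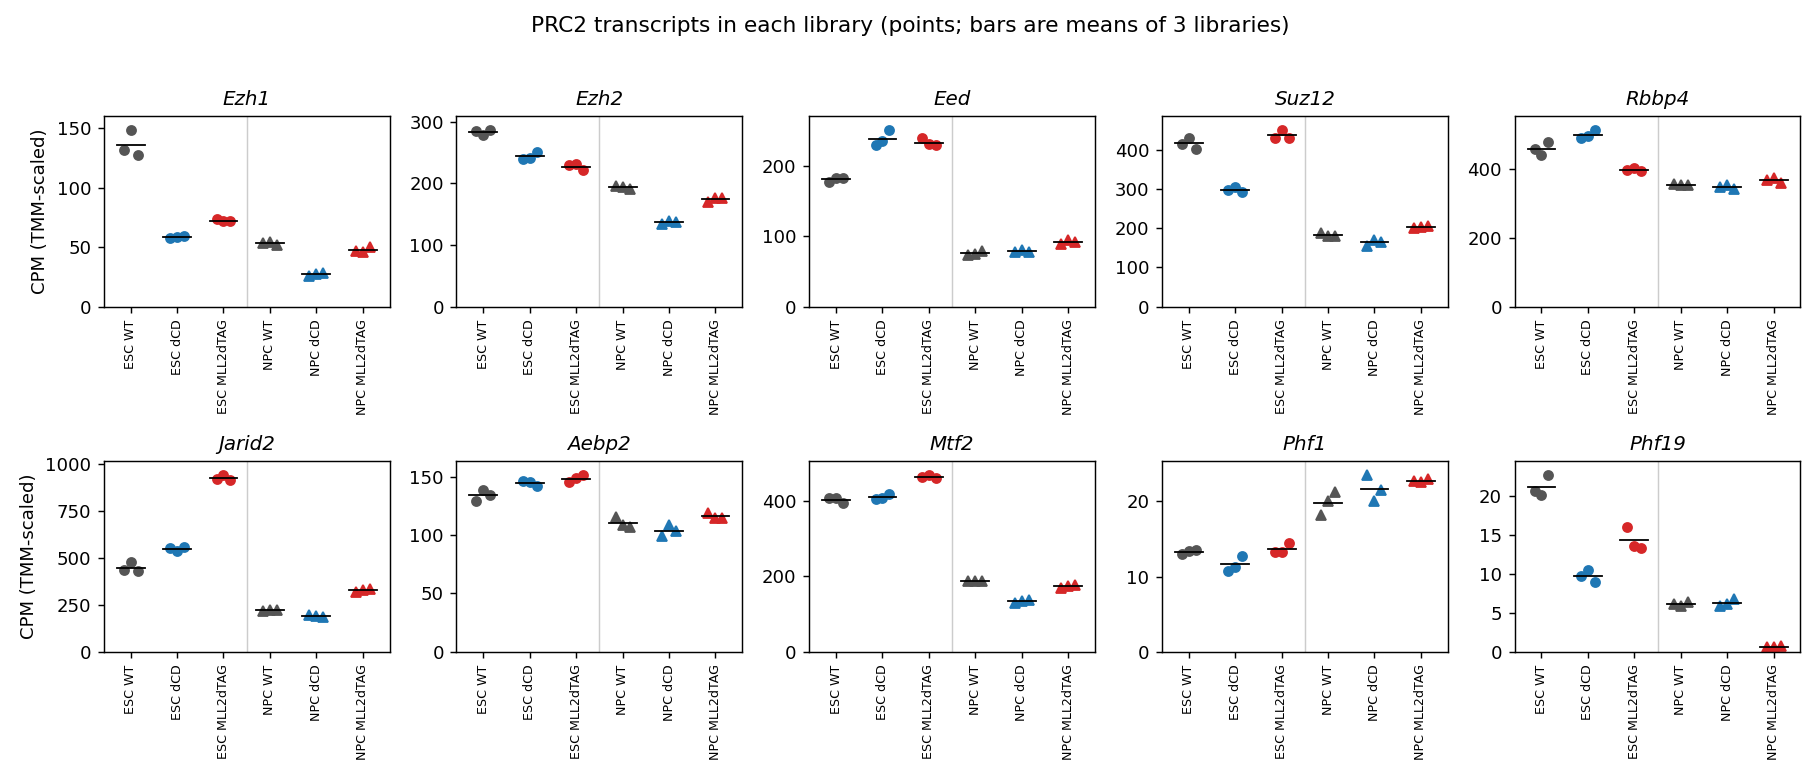
CPM of each PRC2 transcript in each of the 18 libraries, with 1 panel per gene, an axis from 0 and bars at the mean of 3 libraries. Circles are ESC and triangles NPC; 9 genes are lower in all NPC libraries of a line than in its ESC libraries, and Phf1 is higher.

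The same 9 transcripts fell and Phf1 rose from ESC to NPC in dCD cells, where 77.6% of all genes were called (38.7% higher, 39.0% lower), and in MLL2dTAG cells, where 78.2% were (39.9% higher, 38.3% lower). The median log2 change of the 10 was -0.85 in dCD (all genes -0.02) and -0.86 in MLL2dTAG (all genes 0). The size of the drop varied between lines for several members. The log2 change of Phf19 was -1.79 in WT, -0.63 (SE 0.10) in dCD and -4.47 (SE 0.14) in MLL2dTAG. That of Ezh1 was -1.36 in WT, -1.10 (SE 0.05) in dCD and -0.61 (SE 0.05) in MLL2dTAG. The log2 change of Mtf2 was -1.10 in WT, -1.61 in dCD and -1.42 in MLL2dTAG. That of Jarid2 was -1.02, -1.53 and -1.50. For the rest, the log2 change in dCD and MLL2dTAG was -0.83 and -0.39 for Ezh2, -1.60 and -1.34 for Eed, -0.86 and -1.10 for Suz12. It was -0.52 and -0.11 for Rbbp4, -0.48 and -0.35 for Aebp2, and 0.89 and 0.73 for Phf1. Cuta, which overlaps Phf1, rose by 0.37 in both of these lines. With offsets for GC content and length, the Rbbp4 values became -0.95 and -0.55, the Aebp2 values -0.89 and -0.77, and the Ezh2 value in MLL2dTAG -0.72. With upper-quartile scaling the Rbbp4 value in MLL2dTAG was -0.23. The difference of each stage change from that in WT is tested as an interaction below.

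**Figure D3:**
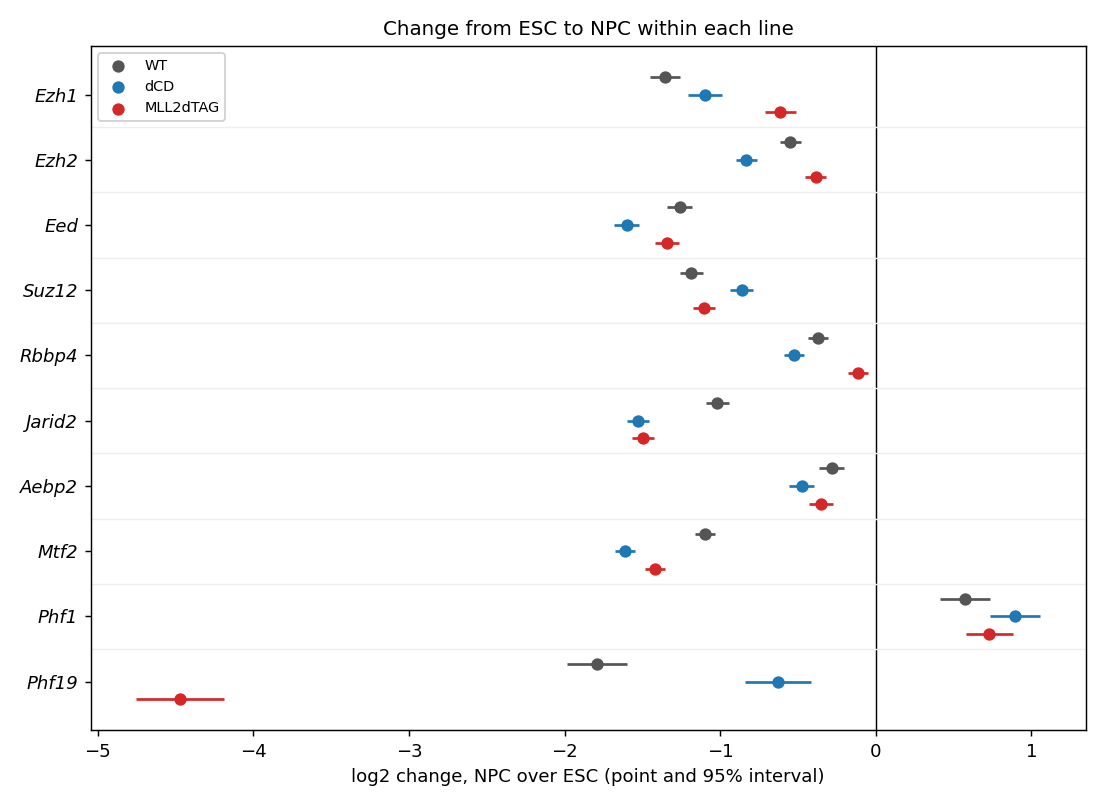
Log2 change from ESC to NPC of each PRC2 transcript in WT, dCD and MLL2dTAG cells, with 95% intervals from the edgeR fit. Every point but those of Phf1 lies below 0, and the points of Phf19 spread from -0.63 in dCD to -4.47 in MLL2dTAG.

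The comparison of dCD with WT asks what differs without MLL3 and MLL4 catalytic activity. In ESC, 4 of the 10 members rose, 4 fell and 2 were not called, where 48.3% of all genes were called, 25.7% higher and 22.6% lower. The median log2 change was -0.09, against 0.02 over all genes. The ranges of the libraries were apart for 9 members and for 51.8% of all genes. Ezh1 was the member with the largest difference, at 58.0, 58.4 and 59.7 CPM in dCD against 128 to 148 CPM in WT. No dCD library came near the lowest WT library, and Ezh1 fell by 1.21 on the log2 scale (SE 0.05, edgeR adjusted p = 1.57e-20). Ezh2 had 239, 241 and 251 CPM against 279 to 286 CPM, a log2 change of -0.22 (SE 0.03).

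Among the other core subunits in dCD ESC, Suz12 had 296, 305 and 292 CPM against 402 to 431 CPM and fell by 0.48 on the log2 scale (SE 0.04). Eed moved the other way, with 230, 236 and 251 CPM against 178 to 183 CPM and a log2 change of 0.40 (SE 0.04). All dCD libraries lay on 1 side of all WT libraries for both genes. Phf19 had 9.73, 10.4 and 8.95 CPM against 20.1 to 22.6 CPM in WT, a log2 change of -1.13 (SE 0.09). Jarid2 rose by 0.29 (SE 0.03), with 554, 537 and 558 CPM. Rbbp4 (log2 change 0.12, adjusted p = 0.00132, edgeR) and Aebp2 (0.11, adjusted p = 0.0264) were also called higher. Fitted on the ESC groups of WT and dCD alone, they gave an adjusted p of 0.053 and 0.106 (edgeR). With offsets for GC content and length the log2 changes were 0.08 and 0.06. Without WT replicate 1 or 3, or without dCD replicate 1 or 2, the adjusted p of Aebp2 also exceeded 0.05. Mtf2 had a log2 change of 0.02 (95% interval -0.04 to 0.09) and Phf1 one of -0.19 (-0.37 to -0.02), and neither was called. Phf1 was called when dCD replicate 3 was left out (log2 change -0.27). Of 10 proliferation genes, 2 were higher and 3 lower in the same libraries, and their part was not tested.

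In NPC, 5 members fell in dCD and 5 were not called. None rose, with edgeR or DESeq2, and none was higher at an unadjusted p under 0.05. Of all genes, 53.5% were called, 26.7% higher and 26.8% lower. The median log2 change was -0.12, against -0.02 over all genes, and the library ranges were apart for 6 members and for 60.1% of all genes. Both catalytic subunits were lower. Ezh1 had 26.1, 27.6 and 28.5 CPM in dCD against 52.0 to 54.2 CPM in WT, a log2 change of -0.96 (SE 0.05, edgeR adjusted p = 1.76e-17). Ezh2 had 135, 138 and 138 CPM against 191 to 195 CPM, a log2 change of -0.50 (SE 0.03, edgeR adjusted p = 2.76e-15). All dCD libraries were below all WT libraries for both.

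Mtf2 was at 131, 134 and 138 CPM in dCD NPC against 188 CPM in WT and fell by 0.49 on the log2 scale (SE 0.03). Jarid2 fell by 0.21 (SE 0.04) and Suz12 by 0.16 (SE 0.04). Phf19, which fell in dCD ESC, had 5.92, 6.10 and 6.81 CPM in dCD NPC and 5.83 to 6.40 CPM in WT. The ranges overlapped, and the log2 change was 0.04 (95% interval -0.18 to 0.25). Eed, Rbbp4, Aebp2 and Phf1 were not called, with log2 changes between -0.09 and 0.12. Under the GC and length offsets, Rbbp4 (-0.08) and Aebp2 (-0.13) were called lower. Aebp2 also passed the test with halved counts (-0.09) and when WT replicate 3 (log2 change -0.11) or dCD replicate 2 (-0.12) was left out. Cuta had a log2 change of 0.46 in this comparison. Proliferation genes were lower in the same libraries, 8 of 10 called, with sums between 2763 and 2872 CPM in dCD NPC against 3593 to 3664 CPM in WT NPC, and neural precursor markers were higher, 6 of 8 called. Of 6 endoderm markers 4 were lower, and of 6 mesenchyme markers 5 were higher and 1 lower. Their part in these results was not tested.

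The interaction term tests whether the dCD difference changed between ESC and NPC. All 10 members passed it, 4 higher and 6 lower, where 42.9% of all genes did, 20.0% higher and 22.9% lower. For Phf19 the difference was 1.17 higher in NPC than in ESC on the log2 scale (SE 0.14, edgeR adjusted p = 1.74e-08). For Mtf2 it was -0.52 (SE 0.04) and for Jarid2 -0.51 (SE 0.05). Jarid2 was the member called higher in dCD ESC and lower in dCD NPC.

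The comparison of MLL2dTAG with WT asks the same of the line in which MLL2 can be degraded. It uses the same WT libraries as the dCD comparison, so the changes of the 2 lines are not independent, and the lines were not tested against each other. In ESC, 4 members rose, 4 fell and 2 were not called, where 56.9% of all genes were called, 28.7% higher and 28.2% lower. The median log2 change was 0.06, against -0.001 over all genes, and library ranges were apart for 8 members and for 59.7% of all genes. Jarid2 had 920, 941 and 915 CPM in MLL2dTAG ESC against 429 to 479 CPM in WT. Every MLL2dTAG library was far above every WT library, and Jarid2 rose by 1.05 on the log2 scale (SE 0.03, edgeR adjusted p = 1.08e-23). The change of Jarid2 in dCD ESC was 0.29.

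Both catalytic subunits were lower in MLL2dTAG ESC. Ezh1 had 73.5, 72.2 and 71.8 CPM against 128 to 148 CPM, a log2 change of -0.91 (SE 0.05, edgeR adjusted p = 2.85e-18). Ezh2 had 229, 231 and 221 CPM against 279 to 286 CPM, a log2 change of -0.32 (SE 0.03). In both, the groups were separate. Phf19 had 16.0, 13.6 and 13.3 CPM against 20.1 to 22.6 CPM, a log2 change of -0.57 (SE 0.09). Eed rose by 0.36 (SE 0.04), Mtf2 by 0.20 (SE 0.03) and Aebp2 by 0.14 (SE 0.04), and Rbbp4 fell by 0.21 (SE 0.03). The Aebp2 call was lost with upper-quartile scaling (log2 change 0.09, adjusted p = 0.061, edgeR). With offsets for GC content and length, Aebp2 changed by 0.27 and Rbbp4 by -0.12. Suz12 had a log2 change of 0.07 (95% interval -0.001 to 0.14) and Phf1 one of 0.04 (-0.12 to 0.21). Suz12 was called when WT replicate 2 was left out (log2 change 0.10), with DESeq2 or its size factors (0.08), with no filter on low counts (0.13) and under the GC and length offsets (0.15). In these libraries 7 of 10 proliferation genes were lower and 7 of 8 ESC markers higher than in WT ESC, and their part was not tested.

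In NPC, 4 members rose, 4 fell and 2 were not called in MLL2dTAG, where 61.7% of all genes were called, 33.3% higher and 28.4% lower. The median log2 change was 0.06, against 0.03 over all genes, and library ranges were apart for 9 members and for 67.9% of all genes. Phf19 had 0.623, 0.574 and 0.731 CPM, from 21, 26 and 28 counts, against 6.11, 5.83 and 6.40 CPM in WT, from 193, 219 and 229 counts. The groups were far apart, and Phf19 fell by 3.25 on the log2 scale (SE 0.16, edgeR adjusted p = 1.68e-19), or by 89.5%. The 8 ESC markers were all called higher in the same NPC libraries, Pou5f1 most, with a log2 change of 4.72. All 6 endoderm markers were also higher, and of 10 proliferation genes 5 were higher and 4 lower. Their part in the Phf19 result was not tested.

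Jarid2 was higher in MLL2dTAG NPC too, at 321, 330 and 333 CPM against 217 to 224 CPM in WT, a log2 change of 0.57 (SE 0.04, edgeR adjusted p = 2.33e-16). No library of either group overlapped the other. Eed rose by 0.28 (SE 0.04). Smaller calls were Phf1 at 0.20, Suz12 at 0.15, Mtf2 at -0.12, Ezh2 at -0.16 and Ezh1 at -0.17 on the log2 scale. Ezh1 had 46.5, 45.9 and 49.8 CPM against 52.0 to 54.2 CPM in WT, so its groups were still apart, but with a log2 change of -0.17 against -0.91 in ESC. The calls of Suz12 and Phf1 were lost with upper-quartile scaling (log2 changes 0.06 and 0.11) and with library totals (0.07 and 0.12). That of Phf1 was also lost without WT replicate 1 (0.14) and with no filter on low counts (0.16). With upper-quartile scaling Ezh1 was at -0.26, Ezh2 at -0.25 and Mtf2 at -0.21, and with library totals Ezh2 was at -0.24 and Mtf2 at -0.20. With offsets for GC content and length, Ezh2 was at -0.09, Suz12 at 0.25 and Mtf2 at 0.03, a change of sign. Cuta had a log2 change of 0.52 in this comparison. Rbbp4 and Aebp2 were not called, at 0.05 (95% interval -0.01 to 0.12) and 0.07 (-0.005 to 0.15), and Aebp2 was called without WT replicate 1 (0.11). Both were called higher under the GC and length offsets, Rbbp4 at 0.11 and Aebp2 at 0.20.

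The MLL2dTAG difference changed between the stages for 6 members, 3 higher and 3 lower, where 49.0% of all genes passed the interaction test, 26.4% higher and 22.6% lower. For Phf19 it was -2.68 on the log2 scale (SE 0.19, edgeR adjusted p = 1.58e-14), the opposite sign to the dCD interaction of 1.17. For Ezh1 it was 0.74 (SE 0.07) and for Jarid2 -0.48 (SE 0.05). The interactions of Eed, Suz12, Aebp2 and Phf1 were not called, at log2 values between -0.08 and 0.15. Eed (-0.17 and -0.18) and Aebp2 (-0.16 and -0.17) passed with library totals and with no filter on low counts, and Suz12 (0.10) and Phf1 (0.27) under the GC and length offsets.

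**Figure D4:**
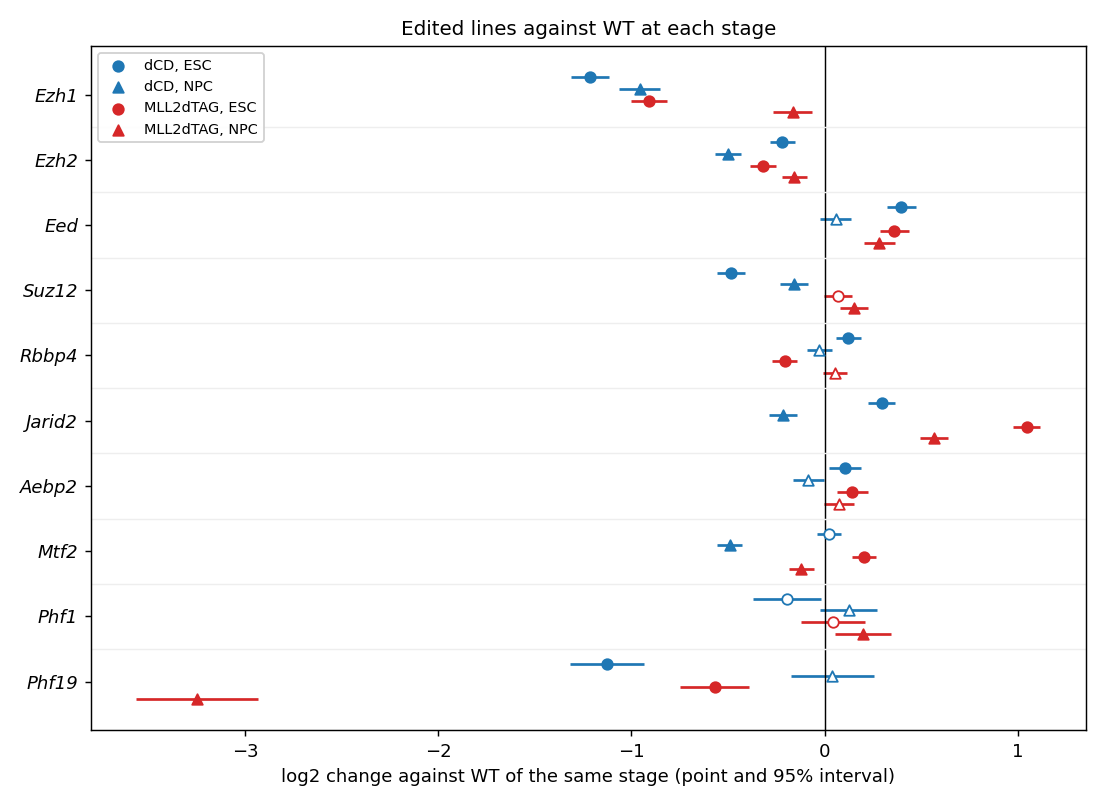
Log2 change of each PRC2 transcript in dCD (blue) and MLL2dTAG (red) against WT of the same stage, with 95% intervals; circles are ESC, triangles NPC and open symbols values that were not called. Ezh1 lies below 0 in all 4 comparisons, from -1.21 to -0.17, and Phf19 in MLL2dTAG NPC lies at -3.25.

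The catalytic subunits were also read against each other within each library, which cancels library scaling. The log2 ratio of Ezh1 counts to Ezh2 counts was -1.06 ± 0.13 in WT ESC, -1.65 ± 0.03 in MLL2dTAG ESC and -2.05 ± 0.02 in dCD ESC (SD, n = 3). It was -1.86 ± 0.02 in WT NPC, -1.87 ± 0.06 in MLL2dTAG NPC and -2.32 ± 0.05 in dCD NPC. The WT ESC libraries, from -1.16 to -0.91, were above all others, and the dCD NPC libraries were below all others. The ratio in MLL2dTAG NPC overlapped that in WT NPC. Without WT ESC replicate 2, the highest, the WT ESC mean was -1.14.

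**Figure D5:**
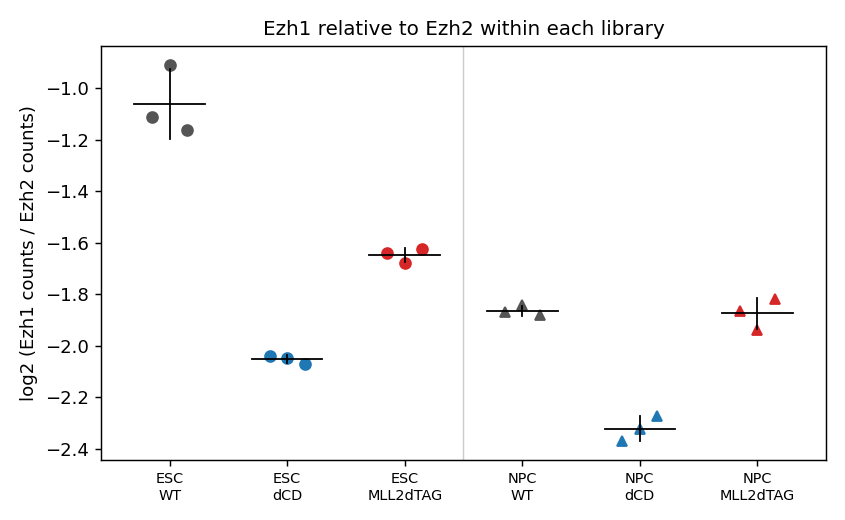
Log2 ratio of Ezh1 to Ezh2 counts in each of the 18 libraries, with the mean and SD of each group of 3 as black lines. WT ESC lie highest, at a mean of -1.06, and dCD NPC lowest, at -2.32.

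Other subunits and cofactors of the complex were read from a list of 5 genes, of which 4 were tested (Rbbp7, Epop, Lcor and Lcorl). From ESC to NPC in WT, Lcor and Lcorl rose, Epop fell and Rbbp7 was not called. Epop, a PRC2.1 cofactor, had a mean of 65.7 ± 0.812 CPM in WT ESC and 13.6 ± 0.576 CPM in WT NPC (SD, n = 3), a log2 change of -2.27. Lcor, whose locus also gives a PRC2.1 cofactor, went from 15.4 ± 2.03 CPM to 59.6 ± 1.84 CPM, a log2 change of 1.97. In the edited lines Epop was called higher in all 4 comparisons, with log2 changes of 0.72 in dCD ESC, 0.30 in dCD NPC, 0.67 in MLL2dTAG ESC and 1.35 in MLL2dTAG NPC. Lcorl fell in dCD ESC by 0.80, in dCD NPC by 0.42 and in MLL2dTAG ESC by 0.74.

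The enzymes that oppose PRC2 were read from further lists. Of 5 genes for H3K27 demethylases and acetyltransferases, 3 rose and 2 fell in WT from ESC to NPC, and the demethylase Kdm6b rose most, by 1.77 on the log2 scale. Against WT, 1 rose and 1 fell in dCD ESC, 1 fell in dCD NPC, and 2 rose and 2 fell in each stage of MLL2dTAG. The share of all genes called was 79.5% for the WT stage change. It was 48.3% in dCD ESC, 53.5% in dCD NPC, 56.9% in MLL2dTAG ESC and 61.7% in MLL2dTAG NPC. The number called in this list moved by over 1.5 times for the WT stage change, from 5 to 3 without ESC WT replicate 2 or NPC WT replicate 1, and for dCD ESC, from 2 to 1 without ESC WT replicate 1 or dCD replicate 2. For dCD NPC it went from 1 to 2 without dCD replicate 1. Over all settings the number ran from 1 to 4 in dCD ESC and from 1 to 3 in dCD NPC. Uty was the lowest in MLL2dTAG, with a log2 change of -4.71 in ESC and 4 counts left in NPC. Of 5 H3K36 methyltransferases, whose mark hinders PRC2, 4 rose and 1 fell in WT from ESC to NPC, led by Nsd2 at 1.38. Nsd2 fell by 0.77 in MLL2dTAG ESC.

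Of 10 genes known as PRC2 targets in ESC, 9 were tested, and 4 of the 10 are also in the endoderm list. The list includes Cdkn2a, which is not a lineage gene. From ESC to NPC in WT, 8 rose and Eomes fell, with log2 changes of 6.78 for Pax3 at the top, which had 4 counts in all in WT ESC and 633 in WT NPC, and -5.45 for Eomes. The sum of the list was between 28.9 and 29.7 CPM in WT ESC and between 224 and 237 CPM in WT NPC. For this change 79.5% of all genes were called, 39.1% higher. Against WT, 3 rose and 3 fell in dCD ESC, 3 rose and 4 fell in dCD NPC, 3 rose and 2 fell in MLL2dTAG ESC, and 6 rose and 1 fell in MLL2dTAG NPC. The share of all genes called was 48.3% in dCD ESC, 53.5% in dCD NPC, 56.9% in MLL2dTAG ESC and 61.7% in MLL2dTAG NPC. The sum in MLL2dTAG NPC was between 549 and 565 CPM. Most of it came from Gata4 and Gata6, at means of 253 and 219 CPM, which are also in the endoderm list. Every other gene of the list had a mean of 47.9 CPM (Cdkn2a) or less in that group. Among called genes in MLL2dTAG NPC, Eomes had the highest log2 change (2.40) and Pax7 the lowest (-3.79). Both rest on few reads. Eomes had 18 counts in all in WT NPC and 108 in MLL2dTAG NPC, and Pax7 had 254 and 20.

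The levels of the 10 members varied together to different degrees. Over the 18 libraries, which share 6 groups and 1 strong stage contrast, the Pearson correlation of log2 CPM was 0.93 between Ezh1 and Ezh2 and 0.96 between Eed and Mtf2. Phf1 ran against the others, with -0.93 to Mtf2 and -0.92 to Eed. Of the 11805 genes that averaged 5 CPM or more, the 3 most like Ezh1 were Dtl, Vps54 and Alkbh5 (each 0.98), and the 3 most like Ezh2 were Plp2, Pold2 and 1110038B12Rik (each 0.99). These are descriptions over libraries that fall into stages and lines, with no test.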

How the data were processed

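Messenger RNA was measured in 18 libraries of TruSeq Stranded mRNA type, per the labels' protocols. The values are the unnormalised counts that the authors deposited for each gene symbol, made with HTSeq per the submitters' processing notes. The aligner, genome build, annotation and strand setting of counting are not given in the sources used here. A further 18 columns were left out: 12 of another table whose names match no label and 6 that could not be tied to a sample. The line with both edits was not analysed here.

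Counts as deposited were tested in 1 edgeR quasi-likelihood fit (edgeR 4.0.16, limma 3.58.1, R 4.3.3) of 6 group means over all 18 libraries. It used TMM factors, filterByExpr (minimum count 10), two-sided tests and Benjamini-Hochberg adjustment over 20511 genes; a gene was called at an adjusted p under 0.05. The fit left 12 residual degrees of freedom and a biological coefficient of variation of 4.01%. Replicates differed by more than counting noise in all 18 pairs. Members are always named; from each list, the called genes with the highest and lowest change may be named. The members and lists were chosen with earlier results of these data known.

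Alternatives were DESeq2 (1.42.0), other scalings, no filter, fewer groups, offsets for GC content and length, halved counts, a replicate block and each library left out. The chance error of a level falls with depth; Phf19, with 21 to 28 counts in the lowest group, is the least precise.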

Additional observations from a re-analysis of the deposited data

Results flagged for a closer look

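The dCD difference from WT was not the same in ESC and NPC for any of the 10 members, by the interaction term of the edgeR fit, and the MLL2dTAG difference was not the same for 6. Values are log2 differences, NPC effect minus ESC effect. For dCD they were 1.17 for Phf19, 0.32 for Suz12, 0.32 for Phf1, 0.26 for Ezh1, -0.15 for Rbbp4, -0.19 for Aebp2, -0.28 for Ezh2, -0.34 for Eed, -0.51 for Jarid2 and -0.52 for Mtf2. For MLL2dTAG they were 0.74 for Ezh1, 0.26 for Rbbp4, 0.16 for Ezh2, -0.32 for Mtf2, -0.48 for Jarid2 and -2.68 for Phf19. Cuta, which overlaps Phf1 on the other strand, had an interaction of 0.45 in dCD and 0.45 in MLL2dTAG, and its part in the Phf1 value was not tested. Of all genes tested, 42.9% and 49.0% passed the same tests. The dCD interaction of Phf1 lost its call without ESC dCD replicate 1 (0.27), ESC dCD replicate 2 (0.30), NPC WT replicate 1 (0.26) or NPC dCD replicate 1 (0.26). That of Ezh2 in MLL2dTAG was lost with library totals (0.08) and with no filter on low counts (0.07), and that of Rbbp4 in MLL2dTAG was 0.17 and 0.16 under these settings, still called.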

How the results depend on the processing

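Of 1560 values of single members recomputed under other settings, 1510 stayed on their side of the threshold, and the called values among them kept their direction. A further 21 lost a call, 27 gained one and 2 reversed the sign of a called value. Values not called under either setting could change sign and still count among the 1510. Mtf2 in dCD against WT in ESC, reported as 0.02, reached -0.06, and Phf19 in dCD against WT in NPC, reported as 0.04, reached -0.02. All 156 counts of genes called and all 156 counts of members called stayed within 1.5 times the reported count, as did 1344 of 1404 counts over the gene lists. Among those that moved, the number of H3K27 demethylases and acetyltransferases called ran from 3 to 5 for the WT stage change, 1 to 4 in dCD ESC and 1 to 3 in dCD NPC, and that of proliferation genes called went from 5 to 3 in dCD ESC when the groups compared were fitted alone and from 8 to 5 in MLL2dTAG ESC with no filter on low counts. The 2 reversals of a called value were those of Mtf2 in MLL2dTAG against WT in NPC, reported as -0.12. It was 0.0257 with GC and length offsets, and 0.0257 with the replicate block and those offsets together. The cause was not tested. Upper-quartile scaling moved the median log2 change of all genes from ESC to NPC in MLL2dTAG from 0 to -0.11. Same-numbered libraries did not deviate together: over 45 pairs the correlation of their deviations ran from -0.16 to 0.08, none over 0.1. A pairing by number was thus not seen in the counts, but this check cannot exclude that same-numbered libraries shared a culture. The replicate block gave 16170 genes called for the stage change in WT, against 16302, and changed none of the 90 member calls. Depth limits Phf19 and Phf1 most, and whether reads of Cuta enter the counts of Phf1 was not tested.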
